A study of Mus musculus with 18 samples.

Results

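Amino acid carriers of 7 solute carrier families (Slc1, Slc3, Slc6, Slc7, Slc36, Slc38 and Slc43) were followed in a mouse brown preadipocyte line treated with fibroblast growth factor 6 (FGF6) or with vehicle (Veh). Members were set by a rule on gene symbols: protein-coding genes whose GENCODE symbol begins with 1 of the 7 family names. The families were chosen with earlier results of these data known. The rule found 64 genes among the 48023 in the count table, and 35 of them (54.7%) had enough reads to be tested beside 15071 genes in all. One of these 35, Slc7a6os, takes its name from lying opposite Slc7a6 and is not itself a carrier, so 34 tested genes encode carriers.

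The cells came from 1 line of brown fat precursors of Mus musculus, immortalized with SV40 T antigen, so that vehicle and FGF6 groups alike carry the viral oncoprotein. The cultures were kept with vehicle or with recombinant FGF6 (200 ng/ml) until RNA was taken 4, 8 or 24 h later. Total RNA of the whole culture was sequenced in 3 libraries for each of the 6 groups. Each of the 18 libraries held between 24327816 and 33471980 reads counted in genes, and every library lay nearest the mean of its own group. The sources do not say that the 3 libraries of a group came from separate cultures, so p-values measure the spread between these libraries only, which may be technical. In bulk RNA, fewer cells of a kind and less RNA per cell cannot be told apart.

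The label of the cells was checked against markers. Of 10 stromal and preadipocyte markers 9 were tested, among them Pdgfra, Pdgfrb and Col1a1, and their summed level ran from 3978 to 6456 CPM (counts scaled to equal library size) in vehicle libraries, whereas Dlk1 had no reads. With FGF6 the same sum was 2485 to 2633 CPM at 4 h (vehicle 3978 to 4172), 2943 to 3135 at 8 h (vehicle 5497 to 5783) and 1456 to 1527 at 24 h (vehicle 6022 to 6456), and its part in the carrier results was not tested. Most of the sum was collagen: at 24 h Col1a1 averaged 3107 CPM with vehicle and 443 with FGF6 and Col3a1 1738 and 647. Other markers of the list were lower too: Pdgfrb averaged 693 and 134, Pdgfra 280.5 and 91.5 and Ly6a 243 and 32.3 CPM. Smaller differences were those of Ebf2 (54.8 and 42.1), Thy1 (63.6 and 55.7) and the scarce Eng (1.8 and 1.12). Cd34 went the other way, with 16.5 and 43 CPM. Mature adipocyte markers summed to at most 6.66 CPM in any library. Lep and Pck1 had no reads, and the leukocyte markers Ptprc, Adgre1 and Itgam had at most 3 reads in any library. Summed levels of the leukocyte, endothelial, epithelial, myoblast and neural lists reached at most 19.2, 6.16, 2.57, 8.96 and 3.66 CPM.

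Cells take up amino acids through carriers that differ in substrate and in driving force. Slc7 light chains work as exchangers once paired with an Slc3 heavy chain, Slc38 and Slc1 members pull neutral amino acids or glutamate in with sodium, Slc6 members use sodium and chloride, Slc36 members use protons, and the Slc43 members LAT3 and LAT4 let large neutral amino acids pass down their gradient. Several Slc36 and Slc38 members sit in the lysosome, where amino acid supply is read by the mTORC1 kinase complex. In fat, Slc7a10 is known as a surface marker of white adipocytes and Slc36a2 as one of brown and beige adipocytes.

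RefSeq promoters of assembly GRCm38.p6, running from 250 bases before to 50 bases after a transcription start, were at hand for 46 of the 64 members and for 23 of the 35 tested. The tested members without an entry were Slc1a5, Slc6a2, Slc6a6, Slc6a7, Slc6a8, Slc6a15, Slc7a2, Slc7a3, Slc7a5, Slc36a2, Slc38a1 and Slc43a3. Sequences of 6 promoters follow because their members bracket the responses described further on, from an exchanger that rose at all 3 times to one that was never called changed and to lysosomal carriers and a facilitator that fell. Each runs 5′ to 3′ along the gene's own strand, from 150 bases before the start to 10 bases from it, and capitals mark, on either strand, the motif named for that promoter. The first pair, Slc7a11 (chr3:50443604-50443763, minus strand) and Slc1a4 (chr11:20332704-20332863, minus strand), holds TGATGNAA, the C/EBP-ATF response element that ATF4 binds during amino acid shortage. Slc36a1 (chr11:55204190-55204349, plus strand), Slc38a7 (chr8:95853482-95853641, minus strand) and Slc43a1 (chr2:84840173-84840332, plus strand) hold CACGTG, the E-box read by MYC and by the lysosomal regulator TFEB. The last, Slc7a1 (chr5:148399895-148400054, minus strand), holds TGANTCA, the AP-1 element.
Slc7a11: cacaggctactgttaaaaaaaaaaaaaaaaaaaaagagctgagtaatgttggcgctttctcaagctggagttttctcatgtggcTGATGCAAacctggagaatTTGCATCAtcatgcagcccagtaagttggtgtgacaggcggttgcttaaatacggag
Slc1a4: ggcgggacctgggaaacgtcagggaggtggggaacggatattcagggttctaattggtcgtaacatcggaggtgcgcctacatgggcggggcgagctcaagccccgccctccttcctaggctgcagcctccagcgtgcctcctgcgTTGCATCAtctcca
Slc36a1: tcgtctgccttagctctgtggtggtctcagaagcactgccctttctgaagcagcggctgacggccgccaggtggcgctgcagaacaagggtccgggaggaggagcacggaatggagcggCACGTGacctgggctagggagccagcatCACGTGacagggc
Slc38a7: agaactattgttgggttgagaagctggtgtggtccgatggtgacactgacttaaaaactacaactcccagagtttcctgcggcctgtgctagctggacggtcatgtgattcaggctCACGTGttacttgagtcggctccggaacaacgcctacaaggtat
Slc43a1: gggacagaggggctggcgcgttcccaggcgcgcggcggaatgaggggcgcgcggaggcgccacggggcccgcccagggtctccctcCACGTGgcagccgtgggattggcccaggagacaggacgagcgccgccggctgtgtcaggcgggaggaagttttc
Slc7a1: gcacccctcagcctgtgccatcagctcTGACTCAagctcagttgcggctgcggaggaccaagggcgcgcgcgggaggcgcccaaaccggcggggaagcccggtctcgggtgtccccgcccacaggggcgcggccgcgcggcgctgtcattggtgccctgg

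In Slc7a11 the 2 matches to TGATGNAA began 66 and 47 bases before the start, on opposite strands. The single match in Slc1a4 began 4 bases before the start. Slc36a1 carried 2 E-boxes, of which the one nearer the start overlaps a match to TGACNNNGC, the core of the antioxidant response element. Further matches are left in lower case: TGANTCA in Slc38a7, 45 bases before its start, and TGACNNNGC in Slc43a1 and Slc7a1, 16 and 11 bases before theirs. Over the 35 promoter entries of tested members, TGATGNAA was found in 4 (11.4%) against 3.97% of all 32851 promoters in the table, CACGTG in 5 (14.3%) against 7.15%, TGANTCA in 5 (14.3%) against 7.81%, and TGACNNNGC in 8 (22.9%) against 12.4%. Both strands were searched, several genes have more than 1 entry, and the matches are descriptions of letters, not of bound factors. The motifs were not confined to members of 1 direction. CACGTG was also found in Slc1a7, called higher at every time, and in Slc1a6, called lower at 8 and 24 h. TGANTCA was also found in Slc38a10, Slc38a7 and Slc6a17, all called lower at every time, and TGATGNAA in Slc7a7, called lower at 24 h.

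FGF6 moved most of the measured carriers, with more of them lower than higher at each time. At 4 h, 13 members were higher and 18 lower (31 of 35, 88.6%, at an adjusted p under 0.05), where 62.8% of all genes tested were called, 28.6% higher and 34.2% lower. At 8 h, 12 were higher and 18 lower (85.7%), against 70.8% of all genes, 32.4% higher and 38.4% lower. By 24 h, 10 were higher and 21 lower (88.6%), against 73.8%, 35.9% higher and 37.9% lower. When raw library totals set the scale, without TMM factors, the split over all genes at 4 h was 3242 higher and 6495 lower in place of 4308 and 5152, while that of the members was 12 and 18. The median log2 fold change of the members went from -0.19 at 4 h to -0.25 at 8 h and -0.58 at 24 h, while that of all genes tested stayed between -0.05 and -0.02. The tested members were also more abundant than the average gene, with a median level of 43.4 CPM against 24.5 CPM, and the part this plays in the share called was not tested. Adjusted p-values throughout are those of edgeR (quasi-likelihood fit, Benjamini-Hochberg method over all 15071 genes). Errors of log2 fold changes are standard errors.

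Among large changes, falls outnumbered rises most at 24 h. With a fold change of at least 2 also required, 2 members were higher and 5 lower at 4 h (20%), where 11.3% of all genes were called, 4.96% higher and 6.38% lower. At 8 h 6 were higher and 7 lower (37.1%, against 18.3% of all genes, 7.39% higher and 10.9% lower). The 24 h counts were 3 and 14 (48.6%, against 22.8%, 7.44% higher and 15.3% lower). CPM of the 3 vehicle and 3 FGF6 libraries did not overlap for 31, 30 and 33 of the 35 members at 4, 8 and 24 h, where 66.2%, 73.8% and 74.8% of all genes tested were separated in this way. Lower calls at all 3 times were made for 14 members (40.0%, against 23.0% of all genes): Slc1a3, Slc6a2, Slc6a7, Slc6a17, Slc36a1, Slc36a2, Slc36a4, Slc38a4, Slc38a6, Slc38a7, Slc38a9, Slc38a10, Slc43a1 and Slc43a2. Higher calls at all 3 times were made for 7 (20%, against 20.4%): Slc1a7, Slc6a8, Slc7a1, Slc7a5, Slc7a6, Slc7a11 and Slc38a1. The remaining 14 changed their call between times or, in 1 case, were never called.

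**Figure D1:**
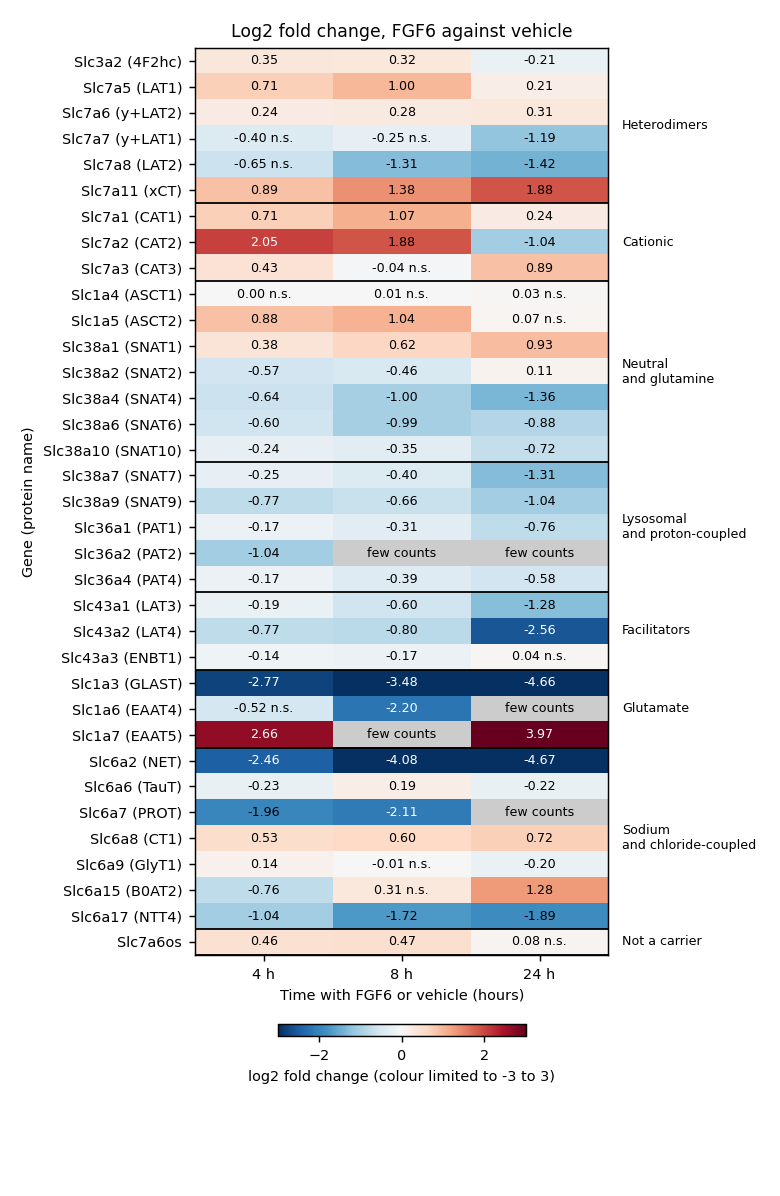
Log2 fold change of FGF6 against vehicle at 4, 8 and 24 h (columns) for the 35 tested members (rows, grouped by role); red is higher and blue lower with FGF6, n.s. marks an adjusted p of 0.05 or more, and grey cells marked few counts have a group with at most 3 reads in every library, for which ratios are given in the text. The heterodimers and cationic carriers are mostly red at 4 and 8 h, whereas 4 of the 5 lysosomal and proton-coupled carriers are blue at every time and the fifth, Slc36a2, is blue at 4 h and grey at 8 and 24 h.

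Of the 6 tested genes of heterodimeric carriers, 4 (Slc3a2, Slc7a5, Slc7a6 and Slc7a11) were higher and none lower at 4 h, the same 4 higher and 1 lower at 8 h, and 3 higher and 3 lower at 24 h. These counts and those of the other roles, of 3 to 7 genes each, stand beside 28.6%, 32.4% and 35.9% of all genes called higher and 34.2%, 38.4% and 37.9% called lower at 4, 8 and 24 h, and no test set a role against them. Slc3a2 (chr19:8706882-8723369 in GRCm38), the heavy chain 4F2hc that brings its light chains to the surface, had 313, 318 and 314 CPM with vehicle and 395, 409 and 403 CPM with FGF6 at 4 h. All 3 FGF6 libraries stood above all 3 vehicle libraries (log2 fold change 0.35 ± 0.03 (SE), adjusted p = 2.39e-10). By 8 h it had 203, 193 and 195 CPM with vehicle and 254, 237 and 249 CPM with FGF6 (log2 fold change 0.32 ± 0.03 (SE), adjusted p = 9.39e-10). At 24 h the order was the other way round, with 193, 193 and 189.7 CPM with vehicle and 166, 165 and 168 CPM with FGF6 (log2 fold change -0.21 ± 0.03 (SE), adjusted p = 1.92e-06). The change of the effect from 8 to 24 h was itself past the threshold (log2 difference -0.53 ± 0.04 (SE), adjusted p = 3.22e-10). The other heavy chain, Slc3a1 or rBAT, had at most 9 reads in any library and was not tested.

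Slc7a5 (chr8:121881150-121907694) encodes LAT1, the large neutral amino acid exchanger that brings leucine in against glutamine. It had 305, 306 and 311 CPM with vehicle and 477, 526 and 504 CPM with FGF6 at 4 h and 118, 107 and 99.7 CPM with vehicle and 234, 211 and 207 CPM with FGF6 at 8 h. FGF6 libraries were the higher at both times without overlap (log2 fold change 0.71 ± 0.05 (SE), adjusted p = 3.85e-12 at 4 h; log2 fold change 1.00 ± 0.05 (SE), adjusted p = 4.21e-15 at 8 h). By 24 h the gap had narrowed to 141, 144 and 131 CPM with vehicle and 159, 162 and 159.8 CPM with FGF6 (log2 fold change 0.21 ± 0.05 (SE), adjusted p = 0.000806), and the effect at 24 h was smaller than that at 8 h (log2 difference -0.80 ± 0.07 (SE), adjusted p = 1.66e-09). Its vehicle level itself dropped between 4 and 8 h (log2 fold change -1.50 ± 0.05 (SE), adjusted p = 4.78e-17), so that the larger fold at 8 h stood on a lower level in both groups.

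Slc7a6 (chr8:106168857-106198706), the y+LAT2 exchanger of cationic for neutral amino acids, rose by a small and even amount. It had 118, 117 and 118 CPM with vehicle and 135, 137 and 145 CPM with FGF6 at 4 h. Values at 8 h were 102, 103 and 103 CPM with vehicle and 126, 126 and 122 CPM with FGF6. Those at 24 h were 80.4, 75.6 and 76.6 CPM with vehicle and 99.9, 93.2 and 95.1 CPM with FGF6. The groups were apart at every time, and log2 fold changes were 0.24 ± 0.03 (SE) with an adjusted p of 7.15e-07, 0.28 ± 0.03 (SE) with an adjusted p of 5.17e-08 and 0.31 ± 0.03 (SE) with an adjusted p of 1.36e-08. No difference of its effect between 2 times passed the threshold. Its relative Slc7a7 (y+LAT1) was near the floor of detection at 0.596, 0.844 and 0.631 CPM with vehicle and 0.328, 0.179 and 0.404 CPM with FGF6 at 24 h, where it was lower with FGF6 (log2 fold change -1.19 ± 0.35 (SE), adjusted p = 0.00408). It was not called at 4 or 8 h. Slc7a8 (LAT2) was as scarce, with 0.911, 0.995 and 0.925 CPM with vehicle and 0.438, 0.321 and 0.294 CPM with FGF6 at 24 h (log2 fold change -1.42 ± 0.38 (SE), adjusted p = 0.00161). At 8 h its groups overlapped, and its call there (log2 fold change -1.31 ± 0.51 (SE), adjusted p = 0.0237) was lost without Veh replicate 2 (log2 fold change -0.92) or without FGF6 replicate 1 (-1.05).

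Slc7a11 (chr3:49892526-50443614), whose promoter with paired TGATGNAA matches is shown above, encodes xCT, which takes up cystine for glutathione and releases glutamate. Of the 6 heterodimer genes it was the 1 whose effect was called as increasing at both steps, from 4 to 8 h (log2 difference 0.49 ± 0.14 (SE), adjusted p = 0.00771) and from 8 to 24 h (0.50 ± 0.16 (SE), adjusted p = 0.0155). It had 23.2, 29.4 and 25.7 CPM with vehicle and 45.3, 50.3 and 50 CPM with FGF6 at 4 h. By 8 h it had 4.73, 4.00 and 3.53 CPM with vehicle and 11.4, 9.75 and 11 CPM with FGF6. By 24 h it had 4.27, 3.71 and 4.33 CPM with vehicle and 14.8, 14.4 and 15.9 CPM with FGF6. Every FGF6 library stood above every vehicle library of its time, with log2 fold changes of 0.89 ± 0.07 (SE) with an adjusted p of 9.97e-11, 1.38 ± 0.11 (SE) with an adjusted p of 4.72e-11 and 1.88 ± 0.11 (SE) with an adjusted p of 4.45e-14. The level itself was highest at 4 h in both groups, and in vehicle it fell from 4 to 8 h by more than that of any other tested member (log2 fold change -2.67 ± 0.10 (SE), adjusted p = 2.59e-16). The light chains Slc7a10, the white adipocyte marker Asc-1, and Slc7a13 had no reads, and neither had Slc7a9 or Slc7a12.

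The cationic amino acid carriers, which bring in arginine and lysine, were all higher at 4 h and parted later. Slc7a1 (chr5:148327410-148399904), the widespread carrier CAT1, had 233, 237 and 236 CPM with vehicle and 373, 391 and 386 CPM with FGF6 at 4 h and 104, 96.1 and 92.6 CPM with vehicle and 218, 200 and 197 CPM with FGF6 at 8 h. FGF6 libraries were higher with no overlap at either time (log2 fold change 0.71 ± 0.04 (SE), adjusted p = 5.17e-13 at 4 h; log2 fold change 1.07 ± 0.05 (SE), adjusted p = 1.32e-16 at 8 h). At 24 h it had 117, 108 and 106 CPM with vehicle and 137, 125 and 130.3 CPM with FGF6, a smaller rise (log2 fold change 0.24 ± 0.05 (SE), adjusted p = 5.14e-05) that differed from that at 8 h (log2 difference -0.83 ± 0.07 (SE), adjusted p = 1.28e-10).

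Slc7a2 (chr8:40862396-40922308), the inducible carrier CAT2, changed direction. It had 12.5, 12.1 and 12.4 CPM with vehicle and 47.3, 52.7 and 52.6 CPM with FGF6 at 4 h and 6.44, 7.41 and 5.68 CPM with vehicle and 24.4, 23.8 and 23.7 CPM with FGF6 at 8 h, so that FGF6 levels were 4.13-fold higher at 4 h and 3.68-fold higher at 8 h. Log2 fold changes were 2.05 ± 0.07 (SE) with an adjusted p of 6.17e-19 at 4 h and 1.88 ± 0.08 (SE) with an adjusted p of 3.79e-17 at 8 h. At 24 h all FGF6 libraries were below all vehicle libraries, at 6.38, 6.21 and 5.47 CPM with vehicle and 3.06, 2.93 and 2.83 CPM with FGF6 (log2 fold change -1.04 ± 0.11 (SE), adjusted p = 5.22e-09). The drop of the effect from 8 to 24 h was the largest of the members with more than 3 reads in a library of each group (log2 difference -2.92 ± 0.13 (SE), adjusted p = 3.28e-15). Exons of Slc7a2 share 635 bases with Gm26584 on the opposite strand, and the strand setting of the read counting is not given in the sources used here. Slc7a3 (CAT3) had 4.05, 4.39 and 3.87 CPM with vehicle and 5.69, 5.71 and 5.20 CPM with FGF6 at 4 h (log2 fold change 0.43 ± 0.14 (SE), adjusted p = 0.00902). After 24 h the values were 1.86, 2.11 and 1.35 CPM with vehicle and 3.83, 3.21 and 3.01 CPM with FGF6 (log2 fold change 0.89 ± 0.17 (SE), adjusted p = 4.34e-05), and at 8 h the groups overlapped.

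**Figure D2:**
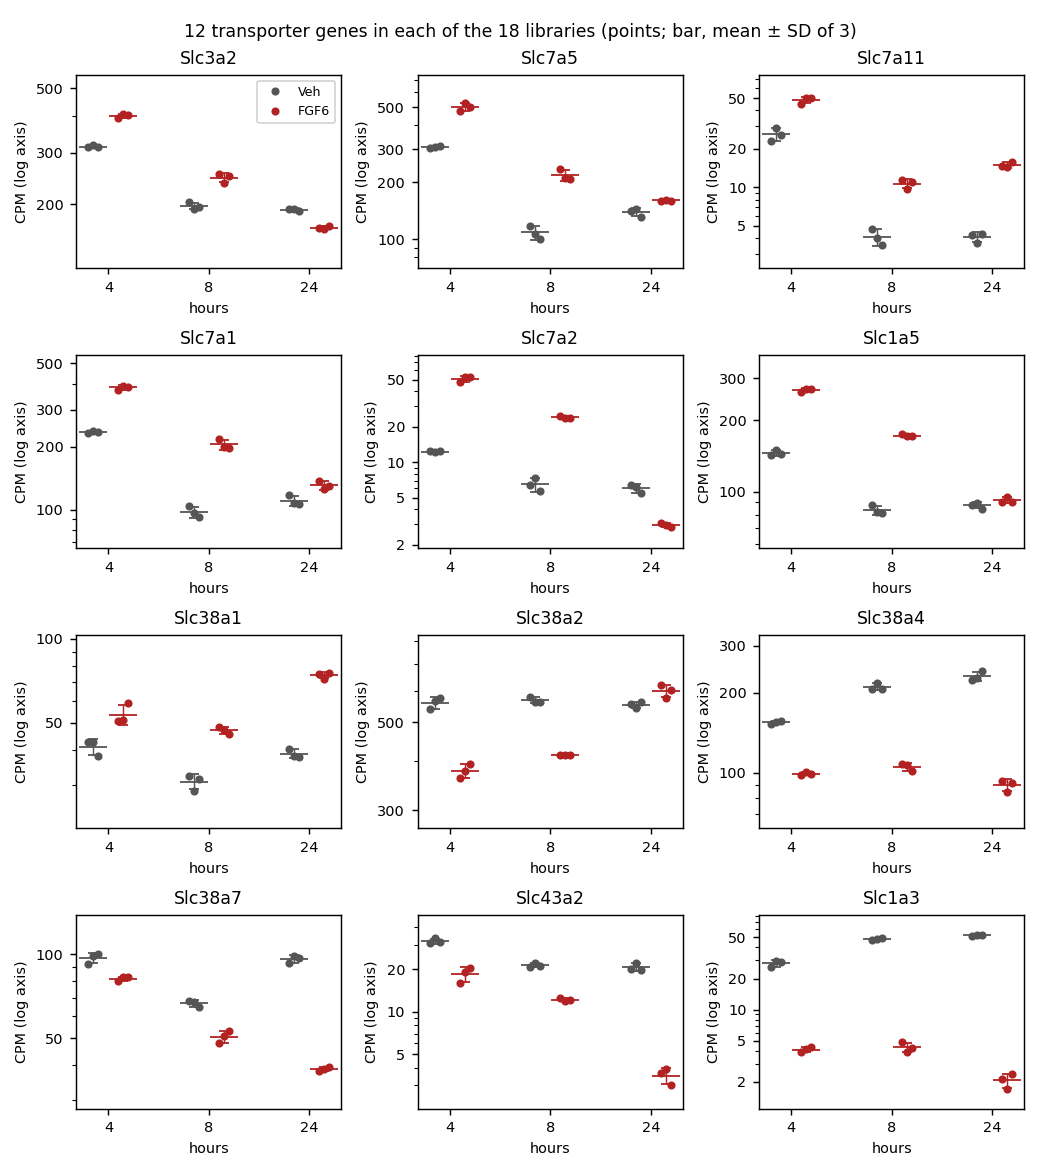
Level of 12 carrier genes in each of the 18 libraries, in CPM on log axes that differ between panels, at 4, 8 and 24 h; grey points are vehicle and red points FGF6 libraries, and bars give the mean ± SD of 3. The red points of Slc3a2, Slc7a2 and Slc38a2 change sides between 8 and 24 h, whereas those of Slc7a11 and Slc38a1 stay above and those of Slc38a4, Slc43a2 and Slc1a3 below.

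Neutral amino acid and glutamine carriers went different ways. Of the 7 tested, 2 were higher and 4 lower at 4 h and at 8 h, and 2 higher and 3 lower at 24 h, and the 2 higher at 4 h are the same share as over all genes (28.6%). Slc1a5 (chr7:16781340-16798274), the sodium-coupled glutamine exchanger ASCT2, had 143, 150.3 and 144 CPM with vehicle and 262, 271 and 270.3 CPM with FGF6 at 4 h and 87.8, 81.7 and 81.1 CPM with vehicle and 174, 171 and 171 CPM with FGF6 at 8 h. Levels with FGF6 were higher without overlap (log2 fold change 0.88 ± 0.03 (SE), adjusted p = 2.88e-17 at 4 h; log2 fold change 1.04 ± 0.04 (SE), adjusted p = 9.23e-19 at 8 h). At 24 h the groups lay close together, at 88, 89.7 and 84.7 CPM with vehicle and 90.7, 94.7 and 90.8 CPM with FGF6. The difference was not called (log2 fold change 0.07 ± 0.04 (SE), adjusted p = 0.0694), though it passed the threshold in DESeq2 (log2 fold change 0.09) and without any 1 of the 3 Veh libraries or of FGF6 replicates 1 and 3 (0.09 to 0.13). The fall of the effect from 8 to 24 h was past the threshold (log2 difference -0.97 ± 0.05 (SE), adjusted p = 3.99e-14).

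Its closest relative, Slc1a4 (chr11:20302180-20332713), encodes ASCT1, which exchanges alanine, serine and cysteine. It was the 1 tested member never called. It had 72, 77.3 and 76 CPM with vehicle and 74.4, 75.9 and 75.7 CPM with FGF6 at 4 h. The 8 h libraries held 41.2, 34.8 and 37.2 CPM with vehicle and 40.3, 35.5 and 38.3 CPM with FGF6. The 24 h libraries held 43.3, 43 and 41.9 CPM with vehicle and 42.8, 44.5 and 43.5 CPM with FGF6. The groups overlapped at each time, and its log2 fold changes were 0.00 ± 0.05, 0.01 ± 0.05 and 0.03 ± 0.05 (SE). In vehicle it fell from 4 to 8 h as many members did (log2 fold change -0.99 ± 0.05 (SE), adjusted p = 6.89e-14). Its promoter holds the same TGATGNAA letters as that of Slc7a11, 4 bases before the start.

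The Slc38 genes of system A lie side by side and responded apart. Slc38a1, Slc38a2 and Slc38a4 occupy 485 kb of chromosome 15 (chr15:96571418-97055956 in GRCm38) and encode SNAT1, SNAT2 and SNAT4, which import glutamine, alanine and other neutral amino acids with sodium. Slc38a1 had 42.6, 42.5 and 37.9 CPM with vehicle and 50.5, 51.3 and 58.7 CPM with FGF6 at 4 h. At 8 h levels were 32.2, 28.5 and 31.3 CPM with vehicle and 48.2, 46.9 and 45.7 CPM with FGF6. At 24 h they were 40.3, 38 and 37.8 CPM with vehicle and 74.7, 72 and 75.2 CPM with FGF6. It was higher with FGF6 each time without overlap, by 0.38 ± 0.06 (SE) with an adjusted p of 2.10e-06, 0.62 ± 0.06 (SE) with an adjusted p of 8.79e-10 and 0.93 ± 0.06 (SE) with an adjusted p of 8.52e-14 on the log2 scale. Slc38a4 did the opposite. It had 152, 155 and 157 CPM with vehicle and 97.8, 100.3 and 98.5 CPM with FGF6 at 4 h. After 8 h it stood at 206, 218 and 207 CPM with vehicle and 108, 107 and 101 CPM with FGF6. After 24 h it stood at 224, 228 and 241 CPM with vehicle and 93, 84.5 and 91.6 CPM with FGF6. Log2 fold changes were -0.64 ± 0.04 (SE) with an adjusted p of 2.07e-13, -1.0 ± 0.04 (SE) with an adjusted p of 1.37e-17 and -1.36 ± 0.04 (SE) with an adjusted p of 1.84e-20. Its vehicle level rose from 4 to 8 h (log2 fold change 0.44 ± 0.04 (SE), adjusted p = 6.15e-10) while with FGF6 it was 98.9 ± 1.29 CPM, 105.1 ± 3.80 CPM and 89.7 ± 4.55 CPM (SD, n = 3) at the 3 times.

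Slc38a2, which lies between them, had 538, 565 and 575 CPM with vehicle and 361, 377 and 392 CPM with FGF6 at 4 h and 579, 563 and 563 CPM with vehicle and 413, 413 and 414 CPM with FGF6 at 8 h. FGF6 libraries were lower at both times with no overlap (log2 fold change -0.57 ± 0.03 (SE), adjusted p = 1.32e-13; log2 fold change -0.46 ± 0.03 (SE), adjusted p = 5.56e-12). At 24 h it had 554, 543 and 562 CPM with vehicle and 619, 576 and 601 CPM with FGF6, slightly higher with FGF6 (log2 fold change 0.11 ± 0.03 (SE), adjusted p = 0.00374). Its effect at 24 h differed from that at 8 h (log2 difference 0.57 ± 0.05 (SE), adjusted p = 3.00e-10). Its vehicle level hardly moved, at 559.4 ± 19.3 CPM, 568.3 ± 9.40 CPM and 553.1 ± 9.42 CPM (SD, n = 3) at the 3 times. Slc38a6 and Slc38a10, less studied relatives, were lower at all 3 times, with log2 fold changes of -0.60, -0.99 and -0.88 for Slc38a6 and -0.24, -0.35 and -0.72 for Slc38a10.

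Lysosomal and proton-coupled carriers shared a direction. All 5 tested members were called lower at 4, 8 and 24 h, with median log2 fold changes of -0.25, -0.40 and -1.04, Slc36a2 resting on few reads and on calls that did not hold in DESeq2 at 4 and 8 h. Slc38a7 (chr8:95835920-95853539) encodes SNAT7, which exports glutamine from the lysosome. It had 92.7, 99 and 100.4 CPM with vehicle and 80.3, 82.7 and 82.8 CPM with FGF6 at 4 h. Values at 8 h were 68.3, 67.4 and 64.6 CPM with vehicle and 48, 51.1 and 53.1 CPM with FGF6. Those at 24 h were 93, 99.1 and 97.2 CPM with vehicle and 38.2, 38.8 and 39.4 CPM with FGF6. Groups were separated throughout and the gap was widest at 24 h, with log2 fold changes of -0.25 ± 0.04 (SE) with an adjusted p of 8.26e-06, -0.40 ± 0.04 (SE) with an adjusted p of 7.64e-09 and -1.31 ± 0.04 (SE) with an adjusted p of 3.05e-19. The step from 8 to 24 h was past the threshold (log2 difference -0.92 ± 0.06 (SE), adjusted p = 4.81e-12). Its vehicle level rose between these times (log2 fold change 0.53 ± 0.04 (SE), adjusted p = 9.94e-11).

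Slc38a9 (chr13:112660751-112738749) encodes SNAT9, the lysosomal arginine sensor of mTORC1. It had 10.9, 11.3 and 11.7 CPM with vehicle and 6.77, 5.83 and 7.43 CPM with FGF6 at 4 h. By 8 h it had 12.5, 12.4 and 15.3 CPM with vehicle and 8.07, 8.44 and 8.96 CPM with FGF6. By 24 h it had 10.8, 11.5 and 10.1 CPM with vehicle and 6.16, 4.47 and 5.21 CPM with FGF6. The FGF6 libraries were lower at each time without overlap, with log2 fold changes of -0.77 ± 0.11 (SE) with an adjusted p of 7.63e-07, -0.66 ± 0.10 (SE) with an adjusted p of 2.31e-06 and -1.04 ± 0.11 (SE) with an adjusted p of 6.48e-09. Slc36a1 (chr11:55204350-55236330), the proton-coupled lysosomal exporter PAT1 with an E-box pair in the promoter shown above, had 53.5, 52.3 and 47.5 CPM with vehicle and 30.3, 30 and 30.4 CPM with FGF6 at 24 h. Its log2 fold changes of -0.17 ± 0.04, -0.31 ± 0.05 and -0.76 ± 0.05 (SE) were lower at each later time, and the difference between 24 and 4 h was called (log2 difference -0.60 ± 0.07 (SE), adjusted p = 2.58e-08). Slc36a4 (PAT4) followed with -0.17, -0.39 and -0.58; its call at 4 h was lost without FGF6 replicate 1 (log2 fold change -0.12).

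Slc36a2, the brown adipocyte marker PAT2, was barely present. It had 13, 16 and 20 reads in the vehicle and 5, 7 and 9 in the FGF6 libraries at 4 h, 7, 6 and 5 against 1, 3 and 2 at 8 h and 5, 5 and 4 against 0 in every library at 24 h. Summed over libraries and scaled to depth, reads were 2.75 times lower with FGF6 at 8 h (95% interval 1.05 to 8.48, exact, counting error only) and at least 4.51-fold lower at 24 h, taking 3 reads over the group as the floor. Its calls at 4 and 8 h were lost in DESeq2, without a filter on low counts, without Veh replicate 3, FGF6 replicate 1 or FGF6 replicate 2 at 4 h (log2 fold changes -0.84 to -0.92), and without Veh replicate 1 or 2 or FGF6 replicate 1 or 3 at 8 h. The neighbouring Slc36a3 had no reads.

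The facilitators were lower, 3 of 3 at 4 and 8 h and 2 of 3 at 24 h. Slc43a2 (chr11:75531694-75577575) encodes LAT4, a uniporter for branched-chain amino acids, phenylalanine and methionine. It had 30.7, 33.2 and 31.5 CPM with vehicle and 16.1, 19.3 and 20.4 CPM with FGF6 at 4 h. The 8 h libraries held 20.9, 22.2 and 21 CPM with vehicle and 12.6, 11.9 and 12.2 CPM with FGF6. The 24 h libraries held 20.1, 22.3 and 19.9 CPM with vehicle and 3.65, 3.89 and 3.01 CPM with FGF6. FGF6 libraries were lower with no overlap at every time, and at 24 h they were 5.91-fold lower. Log2 fold changes were -0.77 ± 0.07 (SE) with an adjusted p of 7.31e-10, -0.80 ± 0.08 (SE) with an adjusted p of 1.27e-09 and -2.56 ± 0.10 (SE) with an adjusted p of 6.72e-18, with a difference between 24 and 8 h of -1.76 ± 0.13 (SE), adjusted p = 3.41e-11. Exons of Slc43a2 share 922 bases with Gm45606 on the opposite strand, and those of Slc6a9, Slc6a6, Slc7a7, Slc38a9 and Slc38a10 share 1555, 117, 232, 182 and 367 bases with opposite genes.

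Slc43a1 (chr2:84838850-84863594), its relative LAT3, had 14.3, 14.4 and 14.6 CPM with vehicle and 9.18, 9.38 and 10.1 CPM with FGF6 at 8 h and 13.4, 13.1 and 12.9 CPM with vehicle and 5.73, 4.97 and 5.54 CPM with FGF6 at 24 h. Levels were lower with FGF6 without overlap (log2 fold change -0.60 ± 0.07 (SE), adjusted p = 8.14e-08 at 8 h; log2 fold change -1.28 ± 0.08 (SE), adjusted p = 3.10e-13 at 24 h). At 4 h the groups met near 10.8 CPM, and the call (log2 fold change -0.19 ± 0.07 (SE), adjusted p = 0.0334) was lost in DESeq2, with either other filter, with the 4 h libraries alone and without Veh replicate 2 or 3 or FGF6 replicate 2 or 3, with log2 fold changes of -0.12 to -0.19 in these fits. Slc43a3 (ENBT1), which carries purine nucleobases and not amino acids, shares with Slc43a1 a stretch of 119.7 kb on chromosome 2 (chr2:84838850-84958509). It was lower at 4 and 8 h (log2 fold changes -0.14 and -0.17) and not called at 24 h (0.04), where it passed the threshold without Veh replicate 2 or FGF6 replicate 1 (0.09).

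High-affinity glutamate carriers were few and moved far, with 1 of 3 tested higher at each time, 1 lower at 4 h and 2 lower at 8 and at 24 h. Slc1a3 (chr15:8634124-8710764) encodes GLAST, the sodium-coupled glutamate and aspartate transporter of astrocytes and many stromal cells. It had 25.8, 29.5 and 28.8 CPM with vehicle and 3.88, 4.14 and 4.35 CPM with FGF6 at 4 h. At 8 h levels were 47.7, 48.4 and 49.3 CPM with vehicle and 4.82, 3.90 and 4.27 CPM with FGF6. At 24 h they were 51.3, 52.8 and 53.1 CPM with vehicle and 2.12, 1.71 and 2.39 CPM with FGF6. Vehicle and FGF6 libraries were far apart at every time, the FGF6 libraries being 6.8-fold, 11.2-fold and 25.3-fold lower. Log2 fold changes were -2.77 ± 0.08 (SE) with an adjusted p of 5.42e-20, -3.48 ± 0.07 (SE) with an adjusted p of 8.32e-23, and -4.66 ± 0.09 (SE) with an adjusted p of 1.85e-24. The effect deepened at each step (log2 differences -0.72 ± 0.12 (SE), adjusted p = 6.49e-05 from 4 to 8 h and -1.18 ± 0.14 (SE), adjusted p = 9.72e-08 from 8 to 24 h).

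The other members of this group were scarce. Slc1a7 (EAAT5), known mainly from the retina, had 4, 2 and 13 reads with vehicle and 30, 53 and 27 with FGF6 at 4 h, 1, 2 and 1 and 23, 28 and 20 at 8 h, and 0, 4 and 2 and 29, 40 and 27 at 24 h. It was higher with FGF6 without overlap at 4 h (log2 fold change 2.66 ± 0.42 (SE), adjusted p = 5.28e-06) and at 24 h (log2 fold change 3.97 ± 0.54 (SE), adjusted p = 3.44e-07), and at 8 h the summed reads were 19.3 times higher (95% interval 7.23 to 72.9). Slc1a6 (EAAT4) went down, from 41, 27 and 38 reads with vehicle to 7, 9 and 5 with FGF6 at 8 h (log2 fold change -2.20 ± 0.32 (SE), adjusted p = 1.40e-06). At 24 h it had 31, 30 and 36 reads with vehicle and 1 read in each FGF6 library, a ratio of summed reads of 31.3 (95% interval 10.4 to 154). Without Veh replicate 3, which held 13 reads, the log2 fold change of Slc1a7 at 4 h was 3.73, and without Veh replicate 2 that at 24 h was 4.81. The glutamate carriers Slc1a1 and Slc1a2, EAAT3 and EAAT2, were not tested.

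Sodium and chloride-coupled carriers did not share a direction. Of the 7 tested, 2 were higher and 5 lower at 4 h and at 24 h, and 2 higher and 3 lower at 8 h. Slc6a17 (chr3:107467543-107518018), a vesicular carrier of neutral amino acids named NTT4 and known from neurons, was well expressed. It had 362, 349.5 and 328 CPM with vehicle and 181, 166 and 158 CPM with FGF6 at 4 h. After 8 h it stood at 342, 286 and 285 CPM with vehicle and 100.4, 89.1 and 86.9 CPM with FGF6. After 24 h it stood at 238, 221 and 215 CPM with vehicle and 58.7, 60.5 and 62.4 CPM with FGF6. No FGF6 library reached any vehicle library, and log2 fold changes were -1.04 ± 0.06 (SE) with an adjusted p of 1.76e-13, -1.72 ± 0.06 (SE) with an adjusted p of 7.29e-18 and -1.89 ± 0.07 (SE) with an adjusted p of 1.21e-18. Slc6a8 (chrX:73673150-73682502), the creatine carrier CT1, rose at all 3 times. It had 203, 191 and 193 CPM with vehicle and 310, 324 and 335 CPM with FGF6 at 24 h, and its log2 fold changes were 0.53 ± 0.03, 0.60 ± 0.03 and 0.72 ± 0.03 (SE) with an adjusted p of 3.66e-16.

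Slc6a2 (chr8:92960079-93001667), the noradrenaline reuptake carrier NET, was low. It had 1.69, 1.61 and 1.74 CPM with vehicle and 0.259, 0.351 and 0.284 CPM with FGF6 at 4 h. Values at 8 h were 1.52, 1.43 and 2.05 CPM with vehicle and 0.13, 0.134 and 0 CPM with FGF6. Those at 24 h were 2.77, 4.19 and 3.45 CPM with vehicle and 0.0729, 0.107 and 0.22 CPM with FGF6. The groups did not overlap. Log2 fold changes were -2.46 ± 0.32 (SE) with an adjusted p of 2.80e-07, -4.08 ± 0.40 (SE) with an adjusted p of 1.79e-09 and -4.67 ± 0.34 (SE) with an adjusted p of 4.68e-12, and no FGF6 library held more than 11 reads. Slc6a7, the proline carrier PROT, had 1.65, 1.82 and 0.935 CPM with vehicle and 0.333, 0.287 and 0.528 CPM with FGF6 at 4 h (log2 fold change -1.96 ± 0.34 (SE), adjusted p = 1.92e-05). At 8 h the libraries held 1.67, 1.56 and 1.99 CPM with vehicle and 0.586, 0.269 and 0.329 CPM with FGF6 (log2 fold change -2.11 ± 0.33 (SE), adjusted p = 3.32e-06). At 24 h its reads summed to 95 with vehicle and 2 with FGF6, a ratio of 45.9 (95% interval 12.4 to 385), and both FGF6 reads came from replicate 2.

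Slc6a15, the neutral amino acid carrier B0AT2, went from lower to higher. It had 1.04, 0.896 and 1.34 CPM with vehicle and 0.37, 0.701 and 0.853 CPM with FGF6 at 4 h and 1.02, 0.633 and 0.715 CPM with vehicle and 2.01, 1.93 and 1.80 CPM with FGF6 at 24 h, with overlapping groups at 8 h. The rise at 24 h was clear of the spread (log2 fold change 1.28 ± 0.27 (SE), adjusted p = 0.000122), whereas the fall at 4 h (log2 fold change -0.76 ± 0.29 (SE), adjusted p = 0.0271) was lost without Veh replicate 3 (log2 fold change -0.59) or FGF6 replicate 1 (-0.47). Slc6a6, the taurine carrier TauT, was lower, higher and lower again, with log2 fold changes of -0.23 ± 0.04 (SE) with an adjusted p of 1.92e-05, 0.19 ± 0.04 (SE) with an adjusted p of 0.000141 and -0.22 ± 0.04 (SE) with an adjusted p of 2.35e-05. All 3 pairs of groups were separate, and this order of calls was found in 9 of the 15071 genes. Slc6a9, the glycine carrier GlyT1, had log2 fold changes of 0.14, -0.01 and -0.20. Its call at 4 h was lost when library sizes alone set the scale (0.04), with upper-quartile factors (0.09), and without Veh replicate 1 (0.10) or FGF6 replicate 3 (0.14). Its call at 24 h was lost without Veh replicate 1 (-0.13) or FGF6 replicate 1 (-0.10).

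Slc7a6os, the gene opposite Slc7a6, had 59.1, 61.3 and 59.9 CPM with vehicle and 79, 86.9 and 81.1 CPM with FGF6 at 4 h (log2 fold change 0.46 ± 0.04 (SE), adjusted p = 5.42e-10). Its 8 h libraries held 47.5, 47.1 and 46.3 CPM with vehicle and 65.7, 66.9 and 61.9 CPM with FGF6 (log2 fold change 0.47 ± 0.04 (SE), adjusted p = 4.01e-10). At 24 h it was not called (log2 fold change 0.08 ± 0.04 (SE), adjusted p = 0.0982), but passed the threshold without Veh replicate 1 or 2 or FGF6 replicate 1 or 3 (0.13 to 0.15).

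The 29 members that were not tested had at most 12 reads in any library, and 22 of them had at most 3 reads in every library, including 7 with none (Slc6a11, Slc6a21, Slc7a9, Slc7a10, Slc7a12, Slc7a13 and Slc36a3). A count of 3 corresponded to 0.0905 to 0.126 CPM, and shares below this were not detectable at this depth. Among them were most neurotransmitter carriers of the Slc6 family, of which 7 of 21 members were tested, and 1 of the 2 heavy chains.

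Levels can be set side by side only per length, here as CPM per kb of exons. The length was that of the merged exons of all annotated transcripts, such as 17.2 kb for Slc38a1 and 13.9 kb for Slc7a11. Which transcripts were present was not tested, so places of genes with long merged exons may be too low. In vehicle libraries at 24 h the order began with Slc38a2 (62.6 CPM per kb), Slc3a2 (54.3), Slc38a4 (54.2), Slc6a6 (43.9), Slc6a8 (37.5) and Slc7a5 (37.4), and the neighbours Slc3a2 and Slc38a4, and Slc6a8 and Slc7a5, did not differ beyond the spread of 3 libraries. With FGF6 at 24 h it began with Slc38a2 (67.7), Slc6a8 (62.0), Slc3a2 (47.1) and Slc7a5 (43.2), and Slc38a4 had dropped from place 3 to place 8 at 21.1. At 4 h the pair of 4F2hc and LAT1 led instead, with Slc3a2 at 89.3 and Slc7a5 at 82.9 CPM per kb in vehicle and 114 and 135 with FGF6. Slc7a11 climbed from place 30 of 35 in vehicle at 24 h (0.295) to place 20 with FGF6 (1.08), and Slc1a3 went from place 18 (6.14) to place 29 (0.243).

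**Figure D3:**
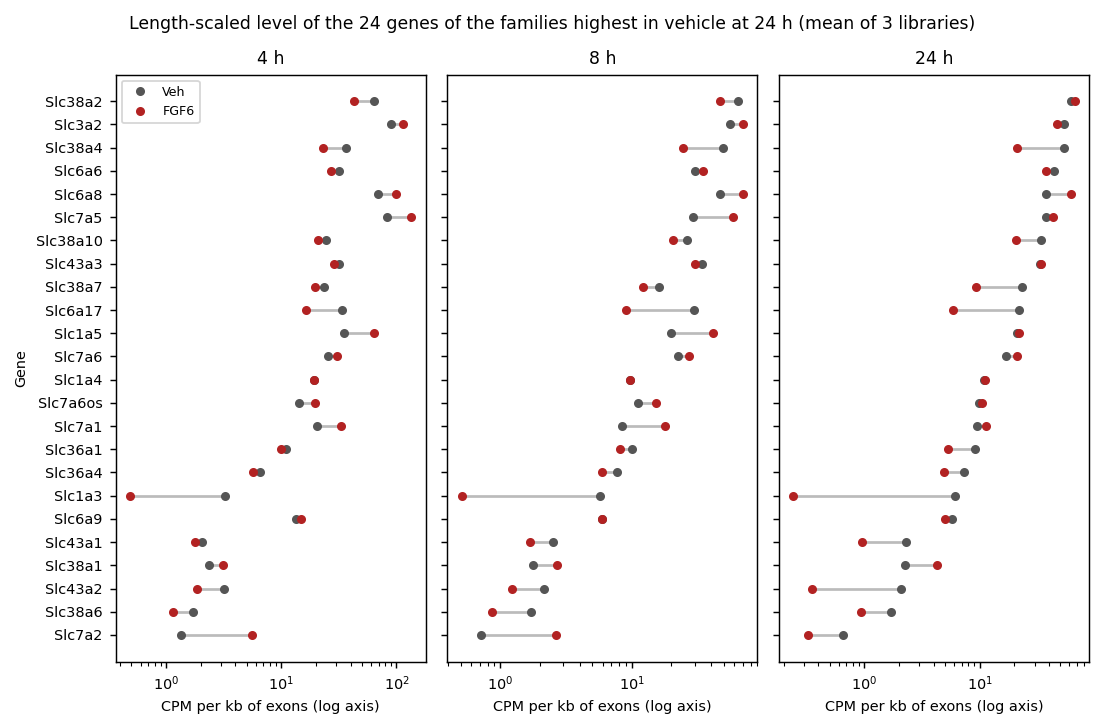
Length-scaled level of the 24 genes of the families that were highest in vehicle at 24 h, in CPM per kb of exons on log axes, at 4, 8 and 24 h; grey points are means of 3 vehicle libraries, red points means of 3 FGF6 libraries, and lines join them. Slc1a3 and Slc43a2 show the longest shifts to the left at 24 h, whereas Slc7a5, Slc1a5 and Slc7a1 shift right at 4 and 8 h and little at 24 h.

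Summed over all members, the level per kb lay higher with FGF6 at 4 and 8 h and lower at 24 h. At 4 h the sum was 645, 654 and 650.3 CPM per kb with vehicle and 729, 756 and 749 with FGF6, a difference of 94.7 that became 45.4 when library sizes alone set the scale. At 24 h it was 515, 514 and 508 with vehicle and 452, 446 and 455 with FGF6, so the FGF6 libraries passed from the higher to the lower side. At 8 h the values were 508, 494 and 485 with vehicle and 534, 515 and 515 with FGF6, and this gap closed when library sizes alone set the scale (532, 514 and 507 against 531, 516 and 515). No test was made of these sums.

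Much of the response depended on time. The effect of FGF6 differed between 4 and 8 h for 14 members (40.0%, against 30.6% of all genes), between 8 and 24 h for 26 (74.3%, against 45.1%), and between 4 and 24 h for 27 (77.1%, against 53.5%), each tested as an interaction in edgeR. Between 8 and 24 h the effect went down for 19 members and up for 7. The downward group included the early rises of Slc3a2, Slc7a1, Slc7a2, Slc7a5 and Slc1a5 as well as the deepening falls of Slc38a7, Slc43a2 and Slc1a3. Slc38a2, Slc43a3, Slc7a3, Slc7a11, Slc38a1, Slc6a8 and Slc6a15 made up the upward group.

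Vehicle cells changed with time too. From 4 to 8 h in vehicle, 8 members were higher and 19 lower (77.1%, against 43% of all genes), and from 8 to 24 h 10 were higher and 7 lower (48.6%, against 49.2%). The 19 that fell from 4 to 8 h in vehicle included every member that FGF6 raised at both 4 and 8 h, but only some of those that it lowered at both. Of the raised members, log2 fold changes from 4 to 8 h in vehicle were -2.67 ± 0.10 for Slc7a11, -1.50 ± 0.05 for Slc7a5, -1.27 ± 0.05 for Slc7a1 and -0.80 ± 0.04 for Slc1a5 (SE). They were -2.13 ± 0.8 for Slc1a7, on few reads, -0.92 ± 0.08 for Slc7a2, -0.68 ± 0.03 for Slc3a2 and -0.57 ± 0.03 for Slc6a8. For Slc38a1, Slc7a6os and Slc7a6 they were -0.42 ± 0.06, -0.36 ± 0.04 and -0.2 ± 0.03. Of the lowered members, they were -1.42 ± 0.39 for Slc36a2, -0.58 ± 0.07 for Slc43a2, -0.54 ± 0.04 for Slc38a7, -0.19 ± 0.06 for Slc6a17 and -0.14 ± 0.04 for Slc36a1. Slc6a9 (-1.16 ± 0.06) and Slc1a4 (-0.99 ± 0.05) fell too. What the medium or the culture contributed to these changes was not tested.

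Other genes of amino acid handling were taken as lists. Of 37 tested enzymes of amino acid metabolism, 21 were higher and 12 lower at 4 h, 22 and 7 at 8 h, and 25 and 10 at 24 h, with a median log2 fold change of 0.15, 0.23 and 0.47. The share called was 89.2%, 78.4% and 94.6%, against 62.8%, 70.8% and 73.8% of all genes, of which 28.6%, 32.4% and 35.9% were higher. The largest rises called at 24 h were those of Odc1, the first enzyme of polyamine synthesis (2.33 ± 0.06, 32.4 to 41.1 CPM with vehicle and 174 to 186 CPM with FGF6). Next came Arg2, mitochondrial arginase (1.71 ± 0.13, 2.62 to 3.11 CPM with vehicle and 8.57 to 9.74 CPM with FGF6), and Gls2, liver-type glutaminase (1.44 ± 0.11, 5.26 to 5.64 CPM with vehicle and 13.2 to 15.4 CPM with FGF6). The largest falls were those of Bcat2 (-0.67 ± 0.10) and Bckdha (-0.61 ± 0.11), which break down branched-chain amino acids in mitochondria, followed by Dbt (-0.49 ± 0.06), of the same pathway, and Oat, ornithine aminotransferase (-0.49 ± 0.03), level with it. Of the other branched-chain genes, the cytosolic transaminase Bcat1 (0.83 ± 0.05) and the kinase Bckdk (0.19 ± 0.04) rose at 24 h, and Bckdhb fell (-0.27 ± 0.07). Bckdk had been lower with FGF6 at 4 h (-0.38 ± 0.04) and 8 h (-0.24 ± 0.04). Mat2a, which makes S-adenosylmethionine, was called at 4 h from levels of 0 to 0.0309 CPM with vehicle and 1.14 to 1.59 CPM with FGF6. It was not called at 8 h (edgeR adjusted p = 0.561) or at 24 h (0.0509). Libraries of 1 group were uneven there, with 0 to 0.826 CPM with vehicle and 0 to 1.15 CPM with FGF6 at 8 h. At 24 h the FGF6 libraries ran from 0 to 1.14 CPM. The cause of this spread was not tested.

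Of 36 tested genes of lysosomal amino acid sensing, 7 were higher and 21 lower at 4 h, 7 and 20 at 8 h, and 7 and 18 at 24 h (medians -0.15, -0.14 and -0.16). The share called was 77.8%, 75% and 69.4%, above that of all genes (62.8% and 70.8%) at 4 and 8 h and below it (73.8%) at 24 h. These counts include 2 genes that are not lysosomal, Eif2ak4 (log2 fold changes 0.58, -0.06 and -0.35) and Atf4 (-0.07, 0.22 and 0.18). The list holds inhibitors of mTORC1 beside its activators, so the counts give no direction of its activity. The falls at 24 h were led by the leucine sensors Sesn1 (-1.77 ± 0.06, 65.1 to 66 CPM with vehicle and 18.8 to 19.9 CPM with FGF6) and Sesn2 (-1.14 ± 0.06) and by Flcn, the folliculin partner of the Rag GTPases (-1.08 ± 0.04). Nprl3 of the GATOR1 complex (0.66 ± 0.06), Rptor, the Raptor subunit of mTORC1 (0.63 ± 0.04), and Seh1l of GATOR2 (0.48 ± 0.04) rose most.

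On a list of amino acid carriers outside the 7 families, 5 were higher and 7 lower at 4 h and at 8 h, and 5 higher and 8 lower at 24 h, of 17 tested (medians -0.11, -0.29 and -0.17). These counts include Slc29a3, which carries nucleosides and not amino acids and was lower at all 3 times (-0.42, -0.59 and -0.71). The share called, 70.6%, 70.6% and 76.5%, lay near that of all genes at 8 and 24 h (70.8% and 73.8%; 62.8% at 4 h). Those that fell most at 24 h were Mfsd12 (-1.82 ± 0.06, 75.7 to 84.8 CPM with vehicle and 19.8 to 23.9 CPM with FGF6) and Ctns (-1.44 ± 0.05, 64.9 to 69.2 CPM with vehicle and 23.5 to 26.7 CPM with FGF6), which carry cysteine into and cystine out of the lysosome, respectively, and Slc25a44, the mitochondrial carrier of branched-chain amino acids (-1.02 ± 0.04, 129 to 149.7 CPM with vehicle and 69.5 to 70 CPM with FGF6). The largest rises were in Slc17a6, a vesicular glutamate carrier present at 0.21 to 0.513 CPM with vehicle and 1.47 to 1.90 CPM with FGF6 (2.12 ± 0.38), Slc16a10, the aromatic amino acid carrier TAT1 (1.04 ± 0.06), and Slc25a13, the mitochondrial aspartate and glutamate exchanger (0.99 ± 0.06). Adjusted p-values of the genes named from the 3 lists and called at 24 h, from edgeR, ran from 6.06e-22 for Odc1 to 0.000738 for Bckdhb.

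**Figure D4:**
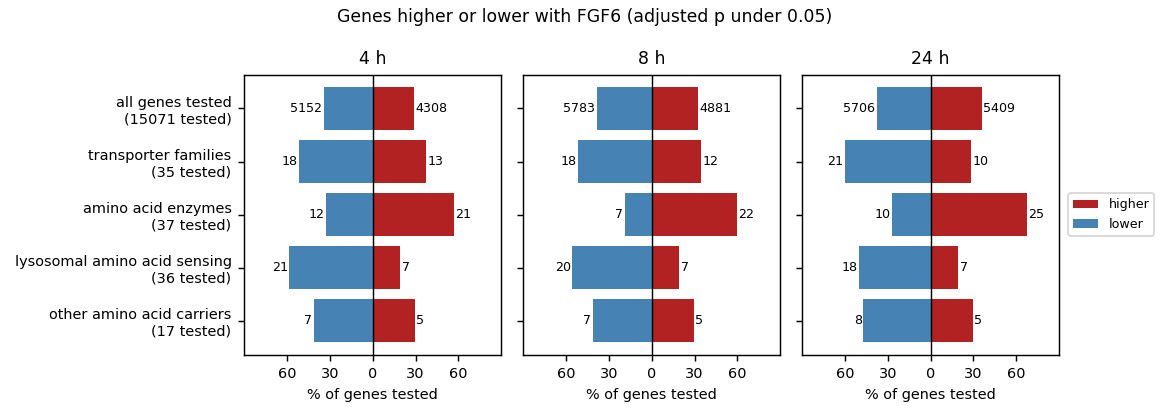
Share of the tested genes that were higher (red, right) or lower (blue, left) with FGF6 at an adjusted p under 0.05, at 4, 8 and 24 h, for all genes tested, the transporter families and the 3 lists; numbers beside the bars are gene counts. The red bar is the longer one for the enzymes at every time, whereas the blue bar is the longer one for all genes tested, the transporter families and the other lists.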

How the data were processed

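Reads counted per gene were taken as deposited. Per the labels and the study's methods, the authors aligned reads with STAR to GRCm38 and counted them over GENCODE genes with featureCounts, and the deposited counts were not normalized. The strand setting is not given in the sources used here. Symbols were matched to 98.5% of gene identifiers. Genes passing filterByExpr over the 6 groups (15071 of 48023) were fitted with edgeR 4.0.16 (R 4.3.3), by the quasi-likelihood test with TMM factors, all 18 libraries, no covariates and Benjamini-Hochberg adjustment at 0.05. Time dependence was tested as an interaction. CPM used TMM-scaled totals, and levels were divided by exon length. Alternatives were limma-voom (limma 3.58.1), DESeq2 1.42.0, other scalings and filters, the libraries of 1 time alone, a replicate block and leaving out each library. On simulated data for the 24 h comparison, 168 of 196 changed genes were recovered (85.7%) with 5 false calls among 14718. Only these few genes were changed, in the FGF6 24 h group alone, whereas 73.8% of genes were called in the data. The error of the real comparison therefore cannot be read from the simulation. Intervals cover counting error only. Members and lists were chosen with earlier results of these data known. Values in every library were given for members called with at least 2-fold change and a mean of at least 1 CPM in 1 group. The same was done for fixed heavy chains, light chains, cationic and neutral carriers, other than the untested Slc3a1. For some of these members the values were not given at every time. Of each list, the 3 largest called changes each way at 24 h were given. Slc7a3, Slc7a6os, Slc6a8, Slc36a1, Slc36a2, Mat2a, Oat, Bcat1, Bckdk, Bckdhb, Eif2ak4, Atf4 and Slc29a3 were added after their values were seen.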

Additional observations from a re-analysis of the deposited data

Results flagged for a closer look

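The effect of FGF6 differed between time points, by an interaction test in edgeR at an adjusted p under 0.05, for 14 members between 4 and 8 h, for 26 between 8 and 24 h and for 27 between 4 and 24 h. Changes of direction called on both sides were seen for Slc3a2 and Slc7a2 (higher, then lower at 24 h) and for Slc38a2 and Slc6a15 (lower, then higher at 24 h), for Slc6a9 (higher at 4 h, lower at 24 h) and for Slc6a6 (lower, higher, lower). The calls of Slc6a9 at 4 and 24 h and of Slc6a15 at 4 h were lost in some alternatives: that of Slc6a9 at 4 h under 2 other scalings and without either of 2 libraries, and the other 2 calls without either of 2 libraries. The cause was not tested.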

How the results depend on the processing

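Of 156 counts of called members over all alternatives, 150 stayed within 1.5 times the reported count. The 6 that moved came from a stricter or looser threshold. Requiring a fold change of at least 2 left 2 higher and 5 lower at 4 h, 6 and 7 at 8 h, and 3 higher at 24 h, and an adjusted p under 0.25 gave 23 members in place of 14 for the difference between 4 and 8 h. Leaving out 1 library at a time gave 12 to 13 higher and 15 to 18 lower at 4 h, 12 to 12 and 16 to 19 at 8 h, and 11 to 14 and 20 to 21 at 24 h, and 10 to 15, 22 to 26 and 26 to 27 members for the differences between 4 and 8, 8 and 24, and 4 and 24 h. Of 1445 log2 fold changes of single members, 1386 kept direction and call, 30 lost the call, 12 gained it and 17 changed sign, none of the last called as reported. Those were Slc1a4 at 4 h (-0.10 with library sizes alone, -0.05 with upper-quartile factors, -0.02 to 0.04 when 1 library was left out, lowest without Veh replicate 1) and at 8 h (-0.05 and -0.03 with these scalings, -0.04 to 0.08 when 1 library was left out, below 0 without Veh replicate 2, at -0.04, or FGF6 replicate 1, at -0.03), Slc7a3 at 8 h (0 in DESeq2, 0.05 without Veh replicate 3, 0.11 without FGF6 replicate 1, range -0.13 to 0.11), and Slc6a9 at 8 h (0.03 in DESeq2, 0 with no filter, 0.01 with at least 10 counts in every library, 0.03 with 8 h libraries alone, and 0.05, 0.01 and 0.03 without Veh replicate 1, FGF6 replicate 2 and FGF6 replicate 3, range -0.06 to 0.05). The cause was not tested. Library sizes alone moved the median of all genes to -0.15 at 4 h and -0.114 at 8 h, and the 4 h split from 4308 higher and 5152 lower to 3242 and 6495, or 3717 and 5900 with upper-quartile factors. In a scaling chosen after seeing the data, library sizes alone, the summed level of all members (Slc7a6os included) with FGF6 minus that with vehicle was 45.4, 3.03 and -62.7 CPM per kb in place of 94.7, 25.5 and -61.1. Same-numbered libraries did not deviate together (correlations -0.05 to 0.0455, 4 of 9 correlating best with their own number), so the numbers were not taken as pairs. With the replicate block the counts were the same, 13 and 18, 12 and 18, and 10 and 21, and 14, 26 and 27. Depth limits the members under about 3 counts per library, for which counting intervals are given.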
